A study of Homo sapiens with 4 samples.

Results

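B-CPAP cells were compared between 40 °C and 37 °C, the incubation temperature of the control, from 1 RNA library at each temperature. Genes were taken in when their level was at least 5 TPM in either library (TPM is the number of reads per base of transcript, scaled to the same total in every library), which kept 10192 of the 58884 genes listed. Of these, 9278 were protein-coding and 914 belonged to other classes such as long non-coding RNAs and pseudogenes, and the latter were kept apart. B-CPAP is an established human line of papillary thyroid carcinoma that carries an activating BRAF mutation, and each library stands for that 1 line in culture. The study also holds TPC-1, a papillary thyroid carcinoma line with a RET fusion, at the same 2 temperatures with 1 library each, so the whole series has 4 libraries. The labels give the heat exposure as 15 min in the growth protocol, as 20 min in the series text and as 24 h in the treatment field, and the exposure behind these libraries cannot be settled from them. No label names separate cultures.

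With 1 library per temperature there is no replicate and no test between temperatures. Ratios are given with a 95% counting interval (exact Clopper-Pearson) from read numbers estimated from the TPM steps. These intervals cover counting error only and compare these 2 libraries, not the temperatures. The libraries held an estimated 24466576 reads at 37 °C and 23232350 at 40 °C. Protein-coding genes took 93.2% of all TPM at 37 °C and 91.6% at 40 °C.

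The thyroid label was checked against defining markers. PAX8, a transcription factor of the thyroid lineage, stood at 111.9 TPM at 37 °C and 98.9 at 40 °C. NKX2-1, a partner factor of the same lineage, stood at 8.60 and 7.90, and FOXE1 at 7.20 and 5.95. Of 16 thyroid markers these 3 reached 5 TPM. SLC5A5 (the iodide transporter), DUOXA2 and IYD were listed at 0 in both B-CPAP libraries, and TG (thyroglobulin) stood at 0.18 and 0.12 TPM. None of 10 leukocyte markers was a member. Of the 7 endothelial markers, ENG alone was one, at 239.0 and 196.2 TPM, and CDH5 was at 0 in both. Among 9 fibroblast markers 5 were members, with POSTN at 15.8 TPM at 37 °C and 29.6 at 40 °C and DCN at 0.05 and 0.16.

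When cells are warmed, proteins unfold, and the transcription factor HSF1 is freed from the chaperones that hold it inactive. HSF1 then forms trimers and binds heat shock elements, inverted repeats of the letters GAA and TTC, in front of genes for the chaperones HSP70, HSP90 and HSP60 and their co-chaperones. HSP90 also keeps mutated kinases such as mutant BRAF in their folded, active form.

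The difference between the B-CPAP libraries went with the base composition of genes. A set of 6 coding stretches shows what that composition looks like, 3 from genes much higher at 40 °C (CENPE, GOLGA4, SMC3), 1 from a GC-rich gene that was nonetheless higher (IGFN1), and 2 from genes lower at 40 °C (ATP6V0C, CTXN1). Each is a 120-base stretch of 1 coding transcript per gene in GENCODE 29 (GRCh38). That transcript is the longest in coding sequence, with those in the basic and consensus coding (CCDS) sets preferred. Coding lengths in this report are of the same transcript. The stretch was chosen because its GC content is close to that of the whole coding sequence. It is written 5′ to 3′ with G and C in capitals.
CENPE, coding bases 49 to 168 of 8106: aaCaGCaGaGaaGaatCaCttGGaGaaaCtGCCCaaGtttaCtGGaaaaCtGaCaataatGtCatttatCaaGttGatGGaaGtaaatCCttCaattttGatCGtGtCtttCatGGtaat
GOLGA4, coding bases 511 to 630 of 6732: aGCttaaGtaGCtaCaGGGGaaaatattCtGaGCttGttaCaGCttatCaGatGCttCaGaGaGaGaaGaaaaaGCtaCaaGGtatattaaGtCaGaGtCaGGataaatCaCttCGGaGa
SMC3, coding bases 85 to 204 of 3654: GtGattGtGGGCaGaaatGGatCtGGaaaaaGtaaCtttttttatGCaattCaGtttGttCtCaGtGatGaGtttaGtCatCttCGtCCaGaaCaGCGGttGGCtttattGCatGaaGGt
IGFN1, coding bases 175 to 294 of 11127: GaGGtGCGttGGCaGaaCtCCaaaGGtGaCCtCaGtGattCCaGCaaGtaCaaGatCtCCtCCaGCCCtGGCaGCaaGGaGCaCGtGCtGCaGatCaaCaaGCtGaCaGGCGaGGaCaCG
ATP6V0C, coding bases 58 to 177 of 468: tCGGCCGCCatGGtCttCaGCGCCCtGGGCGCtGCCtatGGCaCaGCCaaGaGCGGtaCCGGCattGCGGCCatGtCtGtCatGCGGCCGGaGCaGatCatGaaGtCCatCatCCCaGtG
CTXN1, coding bases 52 to 171 of 249: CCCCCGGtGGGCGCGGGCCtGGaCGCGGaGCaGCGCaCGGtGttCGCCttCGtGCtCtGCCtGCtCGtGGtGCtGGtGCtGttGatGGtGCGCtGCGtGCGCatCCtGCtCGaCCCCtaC
G and C made up 35.3% of the coding sequence of CENPE, 38.4% of that of GOLGA4 and 39.0% of that of SMC3. The share was 56.8% in IGFN1, 63.5% in ATP6V0C and 71.1% in CTXN1. The base A alone made up 42.1% of the CENPE coding sequence and 10.8% of that of CTXN1.

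At 40 °C 1074 of the 9278 protein-coding genes (11.6%) were at least 1.5-fold higher and 74 (0.798%) at least 1.5-fold lower, on the log2(TPM + 1) scale used for all differences here, which understates those of low genes. At least 2-fold higher were 117 (1.26%), and 1 gene, TEPSIN, was at least 2-fold lower (0.0108%). By any amount, 5278 (56.9%) were higher. Of the genes past 1.5-fold, 93.6% were thus higher. That split was 79.3% after the differences were centred on their median and 67.1% after quantile normalization. The median difference was 0.09 and the SD over genes 0.38, against 0.01 and 0.21 for the same genes in TPC-1. In TPC-1, 106 of these genes (1.14%) were 1.5-fold higher and 17 (0.183%) lower. Of the 1074 genes, 298 were below 5 TPM at 37 °C and so entered through the 40 °C library. When genes were instead taken by their level in TPC-1 at 37 °C alone, which no B-CPAP value enters, 953 were higher and 66 lower. The counting interval of the ratio lay above 1 in 46.2% of the protein-coding genes and below 1 in 32%.

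The genes higher in B-CPAP at 40 °C were AT-rich and long, and those lower were GC-rich and short. The 1074 had a median exon GC content of 39.1% and a median coding length of 1866 bases, the 74 a median of 63.0% and 850.5 bases, and all protein-coding members 48.4% and 1368 bases. By exon GC, the median difference went from 0.66 at up to 38% GC through 0.31 at 42 to 46% and −0.08 at 50 to 55% to −0.35 above 60%. The TPC-1 medians in the same order were 0.25, 0.09, −0.04 and −0.18. Taken across genes as a description, the B-CPAP difference had a Spearman rho of −0.79 with the GC of the coding sequence and with that of the third codon positions, −0.80 with that of the 3′ untranslated region and −0.20 with that of the 5′ untranslated region. These regions of one gene share their composition. The origin of the trend was not tested.

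**Figure D1:**
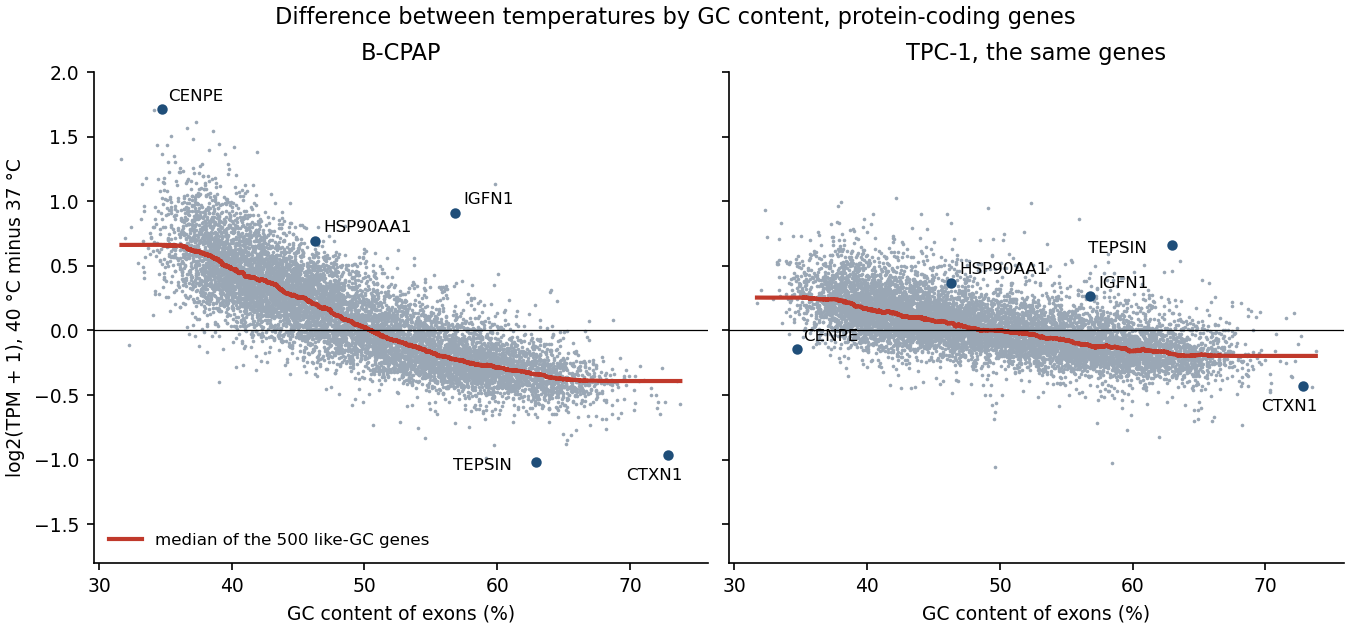
Difference of log2(TPM + 1), 40 °C minus 37 °C, against the GC content of exons in percent; each grey point is 1 protein-coding gene in B-CPAP (left) and the same gene in TPC-1 (right), and the red line is the median of the 500 genes of nearest GC content. The B-CPAP line runs from above 0.6 at low GC to below −0.3 at high GC and the TPC-1 line covers a smaller range, while IGFN1 and HSP90AA1 sit above the line in both panels.

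Because of this trend each gene was also set against the 500 protein-coding genes nearest to it in exon GC content (like-GC genes), and the median of those genes was subtracted. This lowered the SD over B-CPAP genes from 0.38 to 0.20. After it, 71 of 9275 genes (0.765%) were 1.5-fold above their like-GC genes and 29 (0.313%) were 1.5-fold below. Of the 71 genes 30 were under 5 TPM at 37 °C and could be members only through the 40 °C library, against 0 of the 29. With genes taken by TPC-1 at 37 °C alone the counts were 79 and 23. With the smaller threshold of 0.32 on the log2 scale, used for gene groups below, the counts were 638 (6.88%) above and 371 (4%) below, of which 138 and 4 were under 5 TPM at 37 °C. The corresponding TPC-1 counts were 45 (0.485%) and 7 (0.0755%) at 1.5-fold, and 410 (4.42%) and 139 (1.5%) at 0.32.

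Many of the largest differences upward belonged to genes of the mitotic spindle, of anchoring scaffolds and of the Golgi. CENPE, a kinetochore motor that carries chromosomes to the spindle equator (ENSG00000138778, chr4:103105806-103198409, GRCh38), read 3.51 TPM at 37 °C and 13.8 at 40 °C, a ratio of 3.93 (interval 3.41 to 4.54). The TPC-1 libraries read 13.6 and 12.2 TPM. AKAP9, a scaffold that anchors protein kinase A and nucleates microtubules at centrosome and Golgi (chr7:91940867-92110673), read 2.11 and 8.55 TPM, a ratio of 4.05 (interval 3.55 to 4.63), against 2.02 and 1.73 in TPC-1. KIF20B, a kinesin of late cytokinesis, read 9.84 and 34.4 TPM, against 23.1 and 22.6 in TPC-1. For these 3 genes the B-CPAP level at 40 °C lay well above that at 37 °C, and the TPC-1 levels lay close together. In RNA from whole cultures, a larger share of dividing cells and more RNA of these genes per cell cannot be told apart. The 3 genes are also AT-rich, at 34.1 to 37.3% exon GC, and long, as were the genes higher at 40 °C in general. That trend cannot be told apart from the other readings here, and none was tested. GOLGA4, a coiled-coil tether of the trans-Golgi (chr3:37243177-37366751), read 7.49 and 23.8 TPM, a ratio of 3.18 (interval 2.90 to 3.49). CENPF, a kinetochore and nuclear matrix protein of dividing cells, read 19.8 and 54.9 TPM, a ratio of 2.77 (interval 2.62 to 2.92), with 76.7 and 86.2 in TPC-1. At 37 °C both CENPE and CENPF were thus lower in B-CPAP than in TPC-1, and CENPE was close to it at 40 °C.

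Not all of the 12 largest were long genes. COMMD8, a small COMM-domain protein of the endosomal sorting machinery with a coding length of 552 bases, read 7.39 and 21.7 TPM in B-CPAP and 10.3 and 17.7 in TPC-1, so it stood higher at 40 °C in both lines. ESF1, a nucleolar factor of ribosome assembly, read 12.5 and 37.2 TPM, with 7.15 and 7.48 in TPC-1. ANKRD12, a co-repressor-binding protein, read 1.61 and 6.73 TPM, and ATRX, a chromatin remodeller at heterochromatin, read 2.84 and 9.40. KIF14, a kinesin of cytokinesis, read 5.09 and 15.1 TPM. The counting interval excluded 1 in each of these genes, but the rule for naming genes required that.

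**Figure D2:**
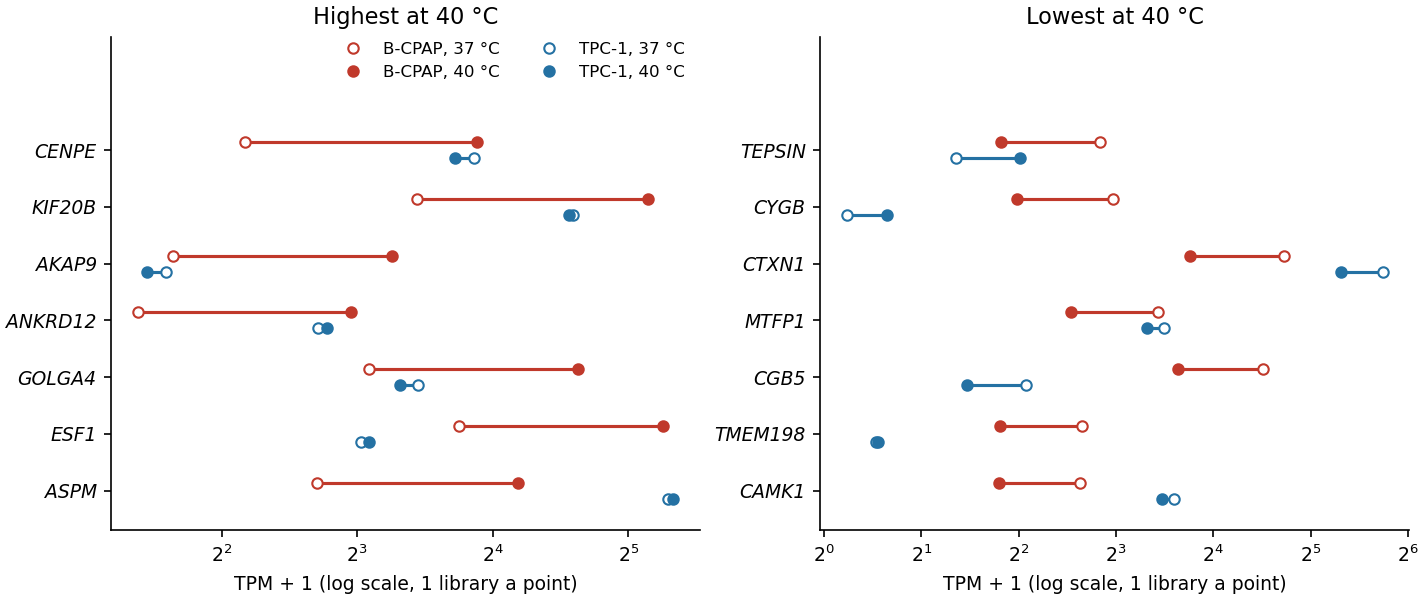
TPM + 1 on a log axis for the 7 protein-coding genes with the largest difference in each direction in B-CPAP; open circles are 37 °C, filled circles 40 °C, red B-CPAP and blue TPC-1, 1 library a point. The B-CPAP lines are long in every row by choice of the genes; in TPC-1 the CENPE points are at 13.6 and 12.2 TPM and the TEPSIN points run the other way, from 1.56 to 3.05.

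The largest differences downward were smaller. TEPSIN, an adaptor-associated protein of trans-Golgi transport vesicles (chr17), read 6.13 TPM at 37 °C and 2.52 at 40 °C, a ratio of 0.411 (interval 0.316 to 0.531), while TPC-1 read 1.56 and 3.05. CYGB, the oxygen-binding globin cytoglobin, read 6.86 and 2.96 TPM, with 0.18 and 0.57 in TPC-1. CTXN1, a small membrane protein best known from neurons (chr19:7924485-7926166), read 25.6 and 12.6 TPM, a ratio of 0.493 (interval 0.389 to 0.617), and was lower at 40 °C in TPC-1 too, at 52.4 and 38.6. ATP6V0C, the proton-conducting ring subunit of the vacuolar ATPase, read 66.8 and 37.9 TPM, a ratio of 0.567 (interval 0.501 to 0.641), and 41.1 and 26.5 in TPC-1. F12, coagulation factor XII, read 6.53 and 3.41 TPM, and 3.58 and 1.81 in TPC-1. CAMK1, a calcium/calmodulin-dependent kinase, read 5.18 and 2.47 TPM, with 11.1 and 10.1 in TPC-1. CTXN1, ATP6V0C and F12 were thus lower at 40 °C in both lines, and TEPSIN was not. CYGB was under 1 TPM in both TPC-1 libraries, and its interval there, 0.899 to 19.7, includes 1. CGB5 and CGB3, which encode the beta chain of chorionic gonadotropin, read 21.9 and 11.4 TPM and 7.33 and 3.75 TPM, but their near-identical copies make the split of reads between them uncertain. CGA, which encodes the alpha chain shared by gonadotropin and thyrotropin, read 7.10 and 5.13 TPM, and was listed at 0 in both TPC-1 libraries.

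Against like-GC genes other names came forward. IGFN1, a muscle-type immunoglobulin and fibronectin repeat protein (chr1:201190825-201228952), has the GC-rich sequence printed above, and its like-GC genes were lower at 40 °C. It nevertheless read 31.0 TPM at 37 °C and 59.2 at 40 °C, a ratio of 1.91 (lower bound of the interval 1.82) and 1.13 above its like-GC genes on the log2 scale. TPC-1 read 33.6 and 40.5 TPM. HIST1H3C, a replication-dependent histone H3 gene, was 1.42 above its like-GC genes, but this rested on 10 and 24 reads. GOLGB1, the giant Golgi tether giantin, read 4.60 and 13.6 TPM, 0.98 above, and TPR, the nuclear basket protein of the nuclear pore, read 8.36 and 23.1 TPM, 0.86 above. Below like-GC genes stood several short genes that were lower at 40 °C or close to level between the libraries. EIF3F, a subunit of the translation initiation factor eIF3, read 91.9 and 74.1 TPM, a ratio of 0.807 and −0.71 against like-GC genes. Exon GC here takes in every annotated transcript of a gene. Against genes of like GC in the coding sequence of 1 transcript per gene, EIF3F stood at −0.19. GABARAP, a ubiquitin-like protein of autophagosomes, read 11.4 and 6.45 TPM, a ratio of 0.565 and −0.73, with 11.9 and 9.94 in TPC-1. TTC5, a cofactor of p300 and of tubulin mRNA decay, read 12.1 and 9.74 TPM and stood at −0.75, and CGA stood at −0.95. SERPINB2, a plasminogen activator inhibitor, read 19.5 and 16.4 TPM at −0.63, and CD33, a sialic acid receptor best known from myeloid cells, read 18.3 and 13.1 TPM at −0.63.

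Coding length ordered the genes further, within genes of like GC. Among genes of up to 38% GC the median B-CPAP difference was 0.46 for coding lengths up to 600 bases (81 genes), 0.61 up to 1200 (161 genes), 0.68 up to 2400 (208 genes), 0.83 up to 4800 (103 genes) and 1.22 above 4800 (21 genes). In TPC-1 the order of the same bins was the reverse, at 0.36, 0.29, 0.24, 0.22 and 0.14. Genes over 60% GC showed a narrower range in B-CPAP, from −0.37 in the shortest to −0.26 in the longest bin, against −0.24 to −0.09 in TPC-1. Over all protein-coding genes rho of coding length with the difference after like-GC subtraction was 0.22 in B-CPAP and −0.08 in TPC-1. The B-CPAP value was 0.12 after quantile normalization and with no filter on low values, and 0.15 with exon length matched as well as GC. The order did not rest on genes that entered through the 40 °C library: with genes taken by TPC-1 at 37 °C alone, the AT-rich medians were 0.46, 0.59, 0.65, 0.82 and 1.05 in B-CPAP and 0.37, 0.29, 0.22, 0.22 and 0.09 in TPC-1. The difference between the lines was not tested, since each has 1 library per temperature.

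Among the 416 genes with a coding sequence over 4800 bases, 108 were 1.5-fold higher in B-CPAP at 40 °C and 0 were 1.5-fold lower, where all protein-coding genes gave 11.6% and 0.798%. Of the 416 genes 64 were under 5 TPM at 37 °C and, as members only through the 40 °C library, could count only upward. Among the 352 others 62 were 1.5-fold higher and 0 lower, where all 8718 genes at or above 5 TPM at 37 °C gave 775 and 74. By at least 0.32, 68 of the 352 stood above like-GC genes and 0 below, against 500 and 367 of the 8718. Among the 438 genes of this length taken by TPC-1 at 37 °C alone the counts were 111 and 0, with 111 at least 0.32 above like-GC genes and 4 below. All 9086 genes of known GC taken that way gave 952 and 66, with 667 above and 365 below. Of the 416, by at least 0.32 on the log2 scale, 104 stood above their like-GC genes and 0 below, where 6.88% of all protein-coding genes stood above and 4% below. The same 416 genes in TPC-1 counted 0 at 1.5-fold in either direction, and 10 above and 6 below like-GC genes by 0.32. At the other end, of 1236 genes with a coding sequence of up to 600 bases, 63 were at least 0.32 above like-GC genes and 116 below in B-CPAP, against 118 and 28 in TPC-1.

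All 21 genes that were both AT-rich (up to 38% GC) and long (over 4800 coding bases) read higher at 40 °C in B-CPAP, by 0.58 to 1.71 on the log2 scale, and 20 of them by at least 1.5-fold. This direction was partly fixed by the choice of genes, since 13 of the 21 were under 5 TPM at 37 °C and entered through the 40 °C library. The 8 at or above 5 TPM at 37 °C (KIF20B, ASPM, KNL1, CHD1, AKAP11, SMCHD1, PIK3C2A and ASCC3) were higher too, 7 of them by at least 1.5-fold, and so were the 23 such genes taken by TPC-1 at 37 °C alone, 20 of them by at least 1.5-fold. Reading higher was not particular to long genes: of the 81 AT-rich genes with up to 600 coding bases, 78 were higher, 24 of them by at least 1.5-fold. In TPC-1 the differences of the 21 ran from −0.14 to 0.38 and none reached 1.5-fold. They serve unlike roles. KNL1, the kinetochore scaffold that recruits checkpoint kinases, read 5.70 TPM at 37 °C and 14.6 at 40 °C. ASPM, a spindle-pole protein, read 5.53 and 17.2 TPM, RIF1, a regulator of replication timing and DNA end protection, read 3.65 and 10.4, and CHD1, a chromatin remodeller of active genes, read 5.12 and 12.6. PHIP, a bromodomain protein, read 3.62 and 10.8 TPM and ZNF292, a zinc finger protein, 1.63 and 5.38. AKAP11, an anchor of protein kinase A and of GSK3, read 6.61 and 14.8 TPM. ASCC3, a helicase of DNA repair and ribosome rescue, had the lowest ratio of the 21 with 12.5 and 19.1 TPM.

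**Figure D3:**
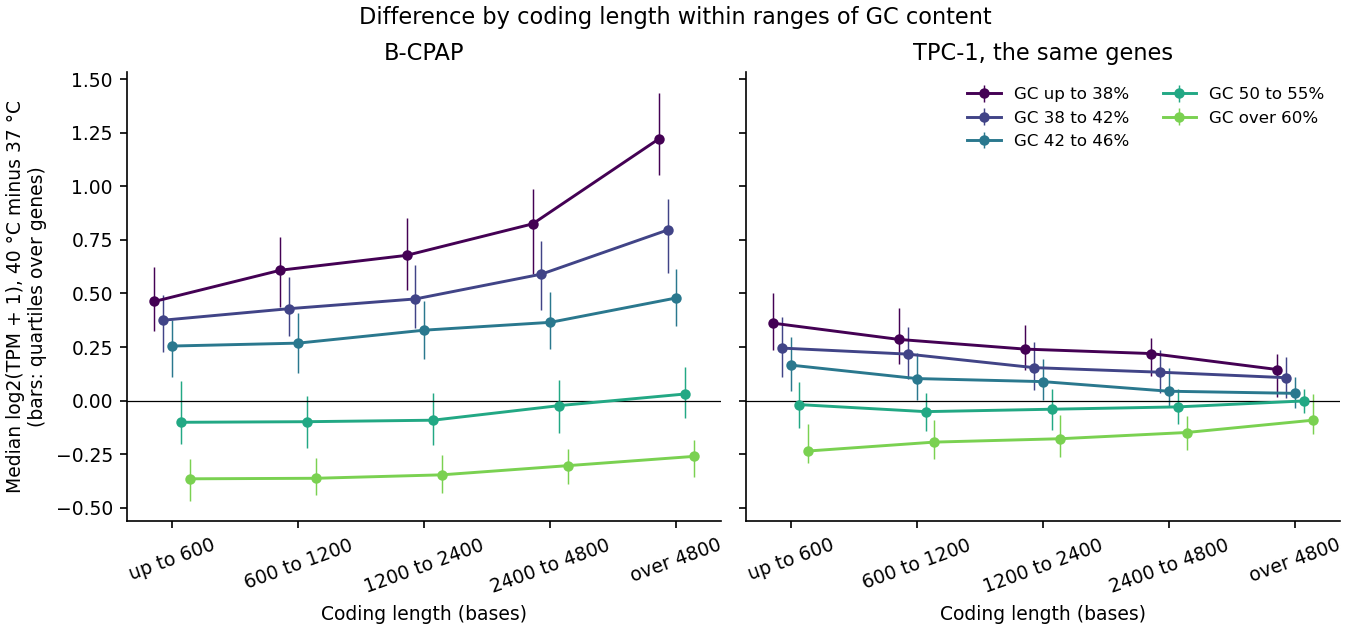
Median difference of log2(TPM + 1), 40 °C minus 37 °C, by coding length in bases, with 1 line for each of 5 ranges of exon GC content and bars for the quartiles over genes; B-CPAP is on the left and the same genes in TPC-1 on the right. In the lowest GC range the B-CPAP medians go from 0.46 in the shortest bin to 1.22 in the longest, and the TPC-1 medians from 0.36 to 0.14.

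Genes of chromosome structure and segregation were read as groups against like-GC genes, for which all 9275 protein-coding genes give 6.88% at least 0.32 above, 4% at least 0.32 below and a median of −0.00032. Lists were chosen with earlier results of these data known, so their counts describe and carry no test. A list member under 5 TPM at 37 °C entered through the 40 °C library and so had to read higher there. This pushes counts and medians upward, here and in the groups below. Such members include NIPBL, KIF15, CEP350, TMF1 and GCC2, and their number in each list was not counted. Among all protein-coding genes, 138 of the 638 at least 0.32 above had entered this way, against 4 of the 371 below. Among 23 genes of cohesin, condensin and related SMC complexes, the rings that hold and compact chromosomes, 9 were above by that much and 0 below, with a median of 0.29 in B-CPAP and −0.02 in TPC-1. SMC3, a core arm of the cohesin ring, read 16.7 TPM at 37 °C and 40.1 at 40 °C, a ratio of 2.40 (interval 2.16 to 2.66), with 37.7 and 39.6 in TPC-1. SMC5, an arm of the SMC5/6 DNA repair complex, read 5.27 and 14.04 TPM. NIPBL, the cohesin loader, read 4.54 and 11.5 TPM, and STAG2, a cohesin subunit, 5.42 and 12.03. SMC2, the condensin arm, read 14.5 and 32.2 TPM, with 30.03 and 31.9 in TPC-1. NCAPD2, a condensin regulator of middling GC content, read 219.1 and 205.0 TPM and had the lowest value of the list, −0.03. When genes were matched for coding length as well as GC, the median of the list was 0.21.

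Mitotic motors and spindle poles were similar in direction. Of 13 mitotic kinesins 4 were above like-GC genes by at least 0.32 and 0 below, with a median of 0.22 in B-CPAP and −0.08 in TPC-1. KIF15, a motor of bipolar spindles, read 4.39 and 8.34 TPM, while KIF22, a chromosome-arm kinesin rich in GC, read 119.8 and 95.9 TPM. Of 29 centrosome and spindle-pole genes 10 were above and 0 below, with a median of 0.20, against 0.02 in TPC-1. CEP350, a centrosomal anchor, read 2.67 and 6.77 TPM, and PCNT, pericentrin, read 13.9 and 17.95 TPM although its exon GC content is 56.1%, which put it 0.55 above like-GC genes. TUBG1, the gamma-tubulin that seeds microtubules, read 309.8 and 257.3 TPM, −0.10 against like-GC genes. Among members with a mean of at least 20 TPM the centrosome median was −0.03, so its value rested on the lower genes. The 31 kinetochore and checkpoint genes had a median of 0.06, with 5 above and 0 below. With coding length matched too, the medians were 0.20 for kinesins, 0.13 for centrosome genes and 0.09 for kinetochore genes. TTK, the checkpoint kinase MPS1, read 9.72 and 22.4 TPM, with 19.8 and 17.6 in TPC-1, while CENPH, a small inner kinetochore subunit, read 30.5 and 38.6 TPM and stood at −0.22. The tubulins, the building blocks of microtubules themselves, lay lower than the motors: of 12 members 1 was above and 1 below, with a median of −0.12. TUBA1C read 918.0 and 700.0 TPM.

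Golgi, nuclear pore and matrix genes were split by gene. Of 22 golgins and Golgi tethers 6 were above and 1 below, with a median of 0.14. TMF1 and GCC2, coiled-coil golgins, read 3.64 and 9.96 TPM and 1.80 and 5.17 TPM. COG2, a subunit of the tethering complex of the Golgi, read 11.3 and 10.96 TPM and stood at −0.43. Among 31 nuclear pore genes the median was −0.06, with 3 above and 1 below, and RANBP2, a large cytoplasmic filament protein of the pore, read 12.3 and 26.4 TPM while NUP93, a scaffold subunit, read 62.4 and 54.99. Of 22 integrins, laminins and collagens 4 were above and 0 below, with a median of 0.15. With coding length matched too, the medians were 0.09 for golgins, −0.08 for nuclear pore genes and 0.08 for integrins, laminins and collagens. ITGB1, the common beta chain of many integrins, read 117.0 and 198.1 TPM, a ratio of 1.69 (interval 1.64 to 1.75), against 612.6 and 729.9 in TPC-1.

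**Figure D4:**
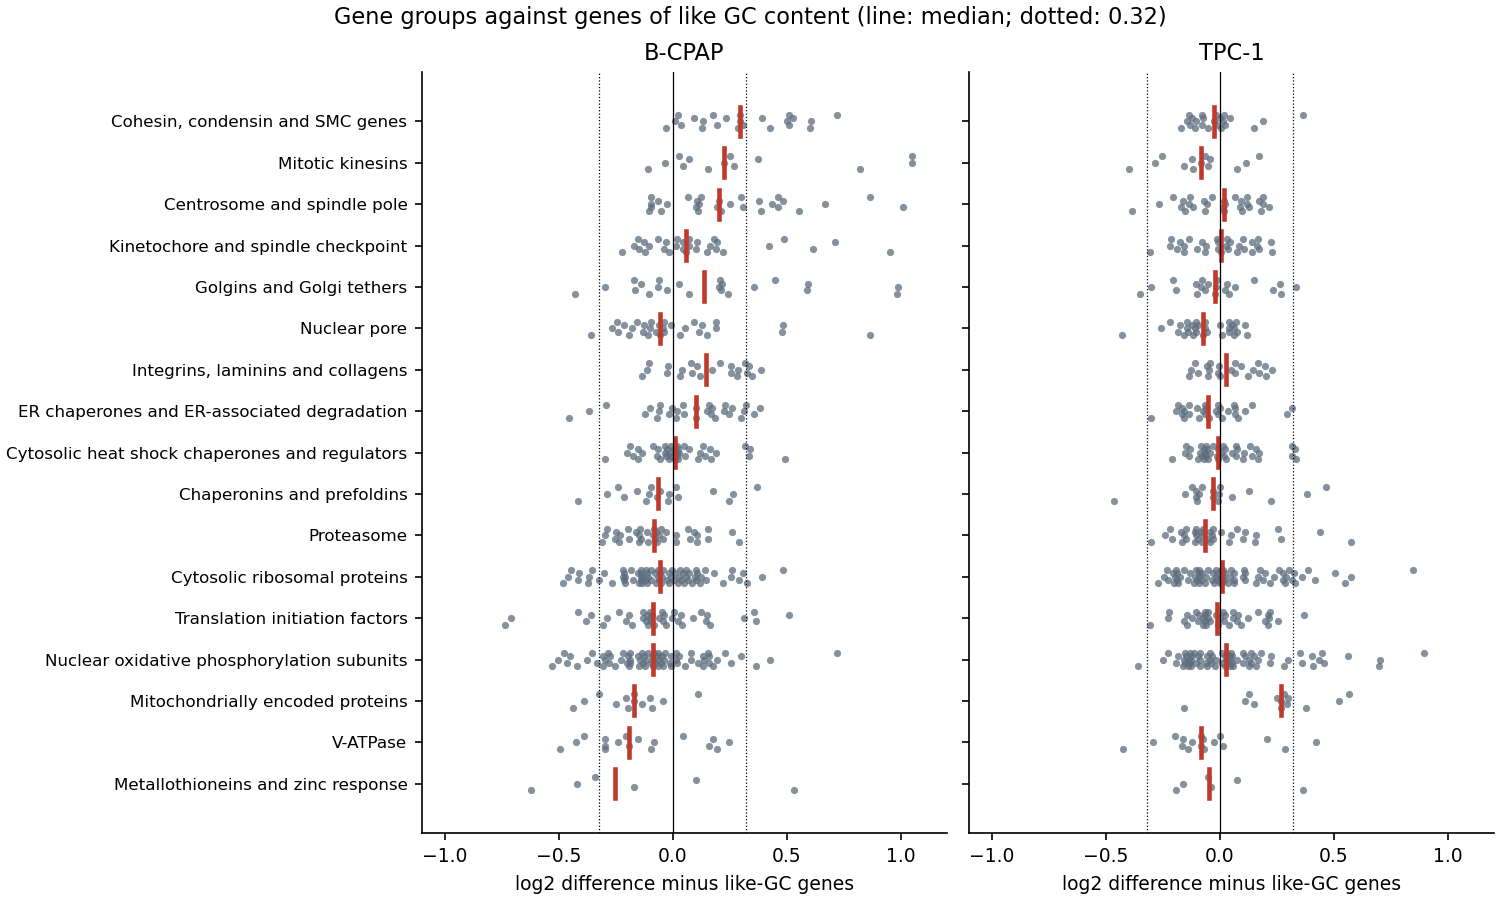
Log2 difference between 40 °C and 37 °C minus the median of like-GC genes for the members of 17 gene groups, 1 point a gene, in B-CPAP (left) and TPC-1 (right); red bars are group medians and dotted lines a difference of 0.32. Cohesin, condensin and SMC genes have the highest B-CPAP median, 0.29, and metallothioneins the lowest, −0.26, while the mitochondrially encoded proteins lie at −0.17 in B-CPAP and 0.27 in TPC-1.

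Of 49 heat shock chaperones and regulators, mostly but not all cytosolic, 41 were members. Their median against like-GC genes was 0.01 in B-CPAP, with 3 of 41 at least 0.32 above and 0 below. Before like-GC subtraction 26 of the 41 read higher at 40 °C and 6 were 1.5-fold higher. Of all protein-coding genes 56.9% read higher and 11.6% were 1.5-fold higher. HSP90AA1, the stress-inducible HSP90 (chr14:102080738-102139699), read 577.8 TPM at 37 °C and 935.5 at 40 °C, 0.49 above like-GC genes and higher than 99.8% of them. TPC-1 read 545.0 and 705.3 TPM, 0.31 above. DNAJB4, an HSP40 co-chaperone, read 8.25 and 16.8 TPM and stood 0.34 above. HSPA1B, an inducible HSP70 gene whose reads are shared with the near-identical HSPA1A and so uncertain, read 130.8 and 136.6 TPM, a ratio near 1 that was 0.33 above its GC-rich like-GC genes. CHORDC1, an HSP90 co-chaperone, read 7.44 and 15.3 TPM, a ratio of 2.06 (interval 1.86 to 2.28), and was 0.32 above like-GC genes, just short of the threshold. HSPH1, an HSP110 exchange factor, read 62.8 and 92.6 TPM and lay at −0.04, level with like-GC genes. At the lower end stood HSPB8, a small heat shock protein, with 114.4 and 94.4 TPM at −0.30, BAG1, an HSP70 exchange factor, with 30.5 and 30.1 TPM at −0.20, and DEDD2 with 40.1 and 27.9 TPM at −0.19.

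**Figure D5:**
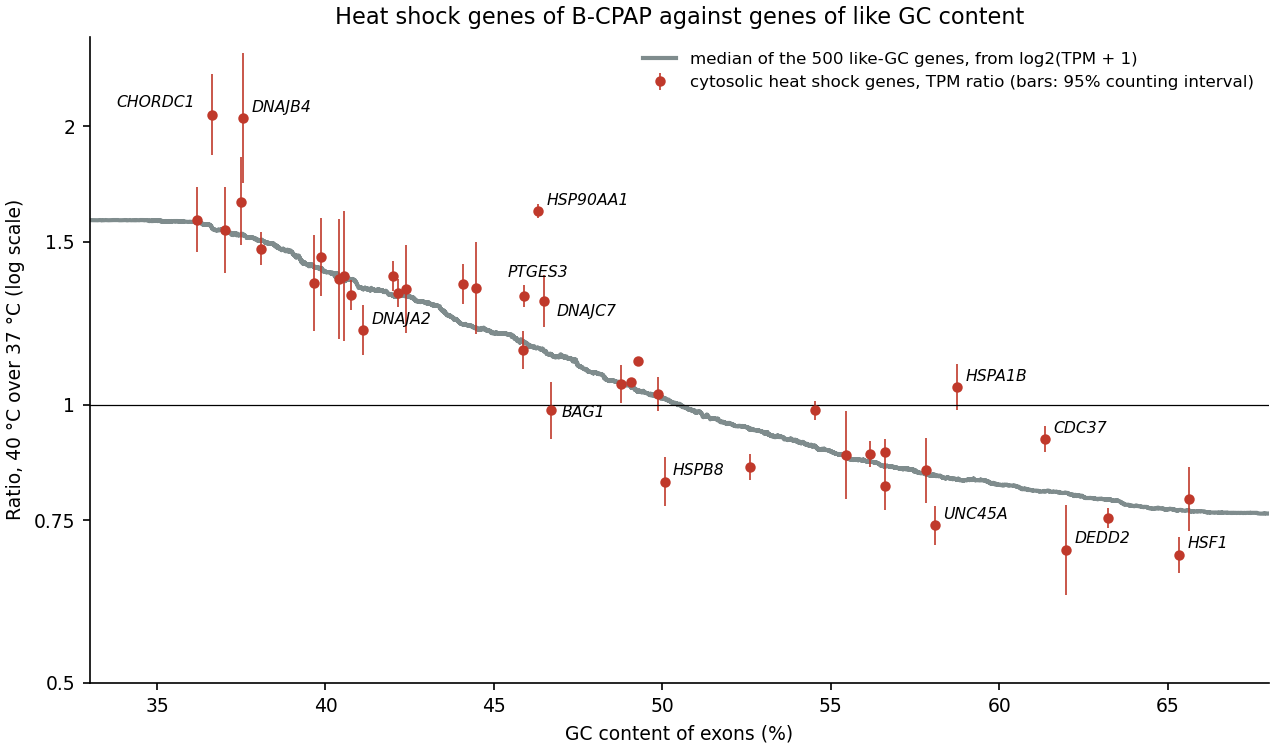
Ratio of TPM at 40 °C to TPM at 37 °C in B-CPAP on a log axis against exon GC content in percent. Points are the 41 heat shock genes, mostly but not all cytosolic, with 95% counting intervals as bars. The grey line is the median of the 500 like-GC genes. Most points lie near the line, HSP90AA1 with 935.5 TPM at 40 °C lies above it, and HSPB8 and BAG1 lie below it.

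The letters of the heat shock element were searched in the RefSeq promoter windows (250 bases before to 50 after each start, GRCh38.p14) as GAA, TTC and GAA in a row or as TTC, GAA and TTC, with 2 bases of any kind between neighbours, which takes in both strands. A match was found in 172 of 35116 windows (0.490%), and 36 of the 7658 protein-coding members with a window (0.470%) had one. The elements of 6 members are shown, because they include the gene furthest above its like-GC genes, one of the furthest below and several well-known chaperone genes between them. The element is in capitals, the strand is that of the gene, and distances count bases before the start.
HSP90AA1, chr14:102087114-102087138, minus strand, 88 to 76 bases before: gggttcTTCCGGAAGGTTCgggagg
CHORDC1, chr11:90223081-90223105, minus strand, 50 to 38 bases before: attcgcGAAGGTTCCTGAAacgcaa
HSPD1, chr2:197500062-197500086, minus strand, 240 to 228 bases before: tttctgGAAAGTTCTGGAAccgagc
HSPA8, chr11:123062173-123062197, minus strand, 55 to 43 bases before: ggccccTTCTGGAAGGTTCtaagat
SERPINH1, chr11:75562171-75562195, plus strand, 76 to 64 bases before: ccaactTTCCAGAAGTTTCtcggga
TMX2, chr11:57712343-57712361, plus strand, 250 to 238 bases before: GAACGTTCAGGAAgtgcta
The 36 genes with a match had a median of 0.07 against like-GC genes, and the 7622 without one a median of −0.0026. HSPD1, the mitochondrial HSP60 chaperonin, read 530.4 and 732.0 TPM and stood 0.17 above, and HSPA8, the constitutive HSP70, read 2599 and 2893 TPM and stood 0.11 above. SERPINH1, the collagen chaperone HSP47, stood at 0.05. TMX2, a thioredoxin-related membrane protein, read 229.7 and 210.4 TPM and stood at −0.37. A match is a description of letters, and genes holding it thus lay on both sides of their like-GC genes.

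Chaperones of the endoplasmic reticulum also lay on both sides. The 30 genes of ER folding and ER-associated degradation had a median of 0.10 in B-CPAP, with 2 above and 2 below by 0.32 or more. HSP90B1, the ER form of HSP90, read 225.6 TPM at 37 °C and 391.9 at 40 °C, a ratio of 1.74 (interval 1.69 to 1.79), against 457.8 and 449.4 in TPC-1. MANF, a secreted ER stress protein, read 84.0 and 97.9 TPM and stood 0.35 above. XBP1, a transcription factor of the unfolded protein response, read 153.8 and 129.7 TPM at −0.46, and HERPUD1, a component of ER-associated degradation, read 33.3 in both libraries at −0.37. These TPM values do not separate spliced from unspliced XBP1. Of the 18 chaperonins and prefoldins, HSPE1, the HSP60 partner HSP10, read 90.6 and 124.5 TPM and stood 0.37 above, and PFDN1, a prefoldin subunit, read 123.0 and 118.9 TPM at −0.42. None of the 36 proteasome genes lay 0.32 or more from like-GC genes, with a median of −0.08.

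Translation and nuclear-encoded respiration genes had medians slightly below like-GC genes, a direction that turned after quantile normalization (0.07 for ribosomal proteins, 0.04 for initiation factors, 0.0054 for oxidative phosphorylation). Of 78 cytosolic ribosomal proteins 3 were above and 9 below, with a median of −0.06, whereas 9 were above and 0 below in TPC-1. RPLP0, of the ribosomal stalk, read 2343 and 1820 TPM, and RPS24, of the small subunit, read 128.3 and 207.9 TPM, with 74.7 and 140.4 in TPC-1. Of 40 initiation factors 3 were above and 5 below. EIF5B, the GTPase of subunit joining, read 34.9 and 71.1 TPM and stood 0.51 above, while EIF1B, a small start-codon factor, read 42.4 and 38.8 TPM at −0.74. Of 73 nuclear-encoded subunits of oxidative phosphorylation 3 were above and 9 below, with a median of −0.09, beside 11 above and 1 below in TPC-1. NDUFB3, of complex I, read 80.0 and 140.9 TPM, with 31.5 and 51.7 in TPC-1, and ATP5MC3, of the ATP synthase ring, read 125.1 and 118.2 TPM. The 13 proteins encoded by mitochondrial DNA had a median of −0.17 in B-CPAP and 0.27 in TPC-1. They took 17.9% of all TPM at 37 °C and 18.9% at 40 °C in B-CPAP.

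The V-ATPase and metallothionein lists had the lowest medians of the gene groups plotted. Among 17 subunits of the V-ATPase, the proton pump of lysosomes and Golgi, 0 were above and 3 below, with a median of −0.19, and ATP6V0E2 read 10.4 and 7.14 TPM. The 25 lysosomal enzymes and membrane proteins, in contrast, had a median of 0.0060, with 2 above and 0 below. In the list of 6 metallothioneins and zinc-response genes the median was −0.26, with 1 above and 3 below. MT2A, an abundant metallothionein, read 1148 TPM at 37 °C and 711.9 at 40 °C, a ratio of 0.620 (interval 0.601 to 0.639), with 1029 and 819.5 in TPC-1. MT1E read 265.7 and 174.1 TPM and MT1X 25.7 and 14.8, and the reads of these similar genes may be split uncertainly. SLC39A10, a zinc importer, read 8.62 and 18.7 TPM and stood 0.53 above. Of 17 interferon-stimulated genes 0 were above and 2 below, and ISG15, a ubiquitin-like modifier, read 135.0 and 82.3 TPM.

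Genes that report on the BRAF pathway were near their like-GC genes. The 16 genes of ERK output had a median of −0.01, with none at 0.32 or more in either direction. CCND1, cyclin D1, read 340.1 and 397.5 TPM and stood 0.30 above, and ETV5, a transcription factor of the pathway, read 48.8 and 44.0 TPM at −0.26. Of 15 immediate early genes 1 was above, IER2, with 46.2 and 47.4 TPM at 0.35. Of 26 genes of hypoxia and glycolysis 3 were above and 1 below. VEGFA, the angiogenic growth factor, read 22.9 and 29.1 TPM, 0.53 above, and HK2, hexokinase 2, read 34.4 and 46.1 TPM, 0.48 above, with 101.9 and 99.5 in TPC-1. NFE2L2, the transcription factor NRF2, read 17.4 and 29.3 TPM and stood 0.46 above. The 28 genes of NRF2 targets and antioxidant defence, which include it, had a median of −0.04, with 12 above like-GC genes by any amount, 2 above and 3 below by 0.32 or more. Among the lowest, FTH1, ferritin heavy chain, read 3842 and 2968 TPM at −0.41, and SRXN1, sulfiredoxin, read 9.29 and 5.88 TPM at −0.46. Of 9 inflammatory cytokines and chemokines 1 was above and 2 below. CXCL8, the neutrophil chemoattractant, read 12.7 and 11.7 TPM at −0.78 while TPC-1 read 3.62 and 7.81, and IL6 read 8.49 and 6.49 TPM at −0.54. Among 13 transient receptor potential channels, a family that includes heat-gated ion channels, 4 were members and none passed 0.32 either way. TRPV1 and TRPV2, heat-gated members, read 1.07 and 0.65 TPM and 1.74 and 0.63 TPM, under the 5 TPM required. Of 19 homologous recombination genes 4 were above and 0 below, with a median of 0.05, and BRCA1 read 10.3 and 18.6 TPM.

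Among the 914 members of other classes 181 (19.8%) were 1.5-fold higher at 40 °C and 92 (10.1%) lower, with 92 (10.1%) at least 2-fold higher and 55 (6.02%) at least 2-fold lower. The counting interval lay above 1 in 19.9% of them and below 1 in 9.63%. Many were short, and 196 had exons of under 200 bases in all. Of these, 85 were 1.5-fold higher and 54 lower, while the counting interval excluded 1 in 18 and 13. Of the 712 longer genes 95 were 1.5-fold higher and 38 lower. The highest was FP236383.3 (chr21:8437629-8438551, minus strand, 923 bases), a gene model that overlaps the RefSeq 45S ribosomal RNA gene RNA45SN1 and its 18S RNA. It read 434.6 TPM at 37 °C and 6563 at 40 °C, an estimated 2993 and 42379 reads and a ratio of 15.1 (interval 14.6 to 15.7). TPC-1 read 1428 and 2052 TPM. Its copies of the same length share sequence, so the assignment of reads among them is uncertain, and without strand in the kit reads of 18S RNA cannot be told apart from it. The sum over the copies was 0.0717% of all TPM at 37 °C and 0.694% at 40 °C in B-CPAP, and 0.187% and 0.301% in TPC-1. MID1IP1-AS1, an antisense RNA whose reads cannot be told apart from those of its overlapping partner, read 4.63 and 14.4 TPM. AC023906.5 read 2.95 and 10.6 TPM. On the lower side CCZ1P1, a pseudogene, read 5.70 and 1.60 TPM, LINC02697 read 7.03 and 2.25, and RPL13AP25, a processed pseudogene of RPL13A that can share its reads, read 64.6 and 26.9 while TPC-1 read 35.4 and 91.1.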

How the data were processed

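RNA from B-CPAP and TPC-1 cells at 37 °C and 40 °C (1 library each) was extracted and made into unstranded libraries, per the labels' protocols. The deposited values are TPM; the submitters' processing notes name Trimmomatic 0.38, featureCounts 2.0.0 and GRCh38, with aligner and annotation release not given in the sources used here. Of 58884 gene IDs 58611 matched GENCODE 29, which gave GC content and lengths. TPM times exon length runs in steps of whole reads, which gave the read estimates and exact intervals. Of values up to 20 reads, 90.7 to 92.2% were within 0.02 of a whole number. From 20 to 200 reads this share was 65.8 to 67.8%. Differences are log2(TPM + 1), 40 °C minus 37 °C, for genes of at least 5 TPM in either library, and like-GC genes are the 500 nearest in exon GC. Genes named are the 12 largest differences each way whose interval excludes 1, before and after like-GC subtraction, the 6 largest each way among other classes of at least 200 bases, every heat shock member, up to 5 each way of every other list, and cell type markers; the text prints a part of them. The long AT-rich genes, the promoter examples, TRPV1 and TRPV2 were chosen after their values were seen. Members and lists were chosen with earlier results of these data known. Scripts were tested on simulated data and run in Python 3.11.15, pandas 2.3.3 and scipy 1.17.1. A few genes are not reported here.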

Additional observations from a re-analysis of the deposited data

Results flagged for a closer look

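Among the 36 named protein-coding genes 3 differed in opposite directions in the lines, with a counting interval that excluded 1 in each line. The 36 were picked as extremes in B-CPAP. Of all 9278 protein-coding genes 7151 had the same direction in both lines, whatever their intervals. The share of all genes that meets the rule on both intervals was not counted, so the 3 cannot be set against it. The difference between the lines was not tested. CENPE, the kinetochore motor, differed by 1.71 on the log2 scale in B-CPAP and by −0.14 in TPC-1, where the ratio was 0.898 (interval 0.809 to 0.998). TEPSIN, the vesicle protein, differed by −1.02 in B-CPAP and by 0.66 in TPC-1, where it read 1.56 and 3.05 TPM, a ratio of 1.95 (interval 1.34 to 2.87). KRT10-AS1, listed as protein-coding in GENCODE 29 and named as an antisense gene of KRT10, differed by −0.27 in B-CPAP, with 26.0 and 21.4 TPM, and by 0.62 in TPC-1, with 8.54 and 13.6 TPM and a ratio of 1.60 (interval 1.26 to 2.02). Without strand, its reads and those of KRT10 cannot be told apart.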

How the results depend on the processing

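With 1 library per temperature no replicate could be left out. No paired analysis was possible because the labels give no replicate numbers. Of the alternatives to the main results 73 stayed close (within 1.5 times and of the same sign) and 37 moved further, the latter mostly counts past a fold threshold. The count of protein-coding genes 1.5-fold higher, 1074, was 447 with a pseudocount of 5, 546 after quantile normalization and 298 at a mean of at least 20 TPM. The 74 lower became 18 with a pseudocount of 5, 127 at a minimum of 1 TPM, 49 at 10 TPM, 152 with no filter, 268 after quantile normalization, 189 after centring and 27 at a mean of at least 20 TPM. The 71 genes 1.5-fold above like-GC genes became 125 with a pseudocount of 0.1, 16 with 5, 163 at 1 TPM, 337 with no filter, 183 with the GC of the coding sequence and 20 at a mean of 20 TPM. The 29 below became 47 with a pseudocount of 0.1, 3 with 5, 70 at 1 TPM, 18 at 10 TPM, 94 with no filter, 54 after quantile normalization, 18 with coding length matched too and 5 at a mean of 20 TPM. Among other classes the 181 higher became 113 with a pseudocount of 5, 1070 at 1 TPM, 77 at 10 TPM and 1524 with no filter, and the 92 lower became 61, 605, 29 and 873 in that order and 151 after quantile normalization. The gap of 0.07 between promoters with and without the heat shock element was 0.0349 with no filter, 0.0476 with a straight line in GC and 0.0467 with the GC of the coding sequence. Lists with a median beyond 0.1 numbered 13, or 23 with no filter. Of lists beyond 0.1, metallothioneins changed sign with no filter (0.0189) and the centrosome list at a mean of 20 TPM (−0.0253). Over all alternatives, 614 values of named genes and 416 list medians stayed close, and 33 and 263 moved further. Of 43 lists 30 had a median of the other sign under at least 1 alternative, of which 2 had a median beyond 0.1 as reported, and 16 lists turned after quantile normalization. The gap between the longest and shortest AT-rich genes, 0.76, ranged from 0.39 to 1.29, where the highest value has 1 long gene, and rho of GC from −0.86 to −0.62. The rho of 0.22 for coding length after GC was 0.03 once coding length was matched too, which removes it by construction. The cause of these shifts was not tested, apart from those that follow from fewer or more genes. Matching on coding length, the mean of 20 TPM, the choice of genes by TPC-1 and all alternatives for promoters and transcript features were chosen after seeing the data. Depth limits genes of few reads, such as HIST1H3C.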

Other observations

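Gene families grouped by the start of their symbols, chosen after their values were seen, lay on both sides of like-GC genes. Over all 9275 protein-coding genes 6.88% stood at least 0.32 (log2) above and 4% below. Of 173 ZNF genes, mostly zinc finger proteins, 26 were at least 0.32 (log2) above and 7 below in B-CPAP, with a median of 0.06. Of 37 USP genes, which encode deubiquitinating enzymes, 5 were above and 0 below, with a median of 0.09, and of 23 ANKRD genes 7 were above and 0 below. Lower stood the small-subunit proteins of the mitochondrial ribosome: of 28 MRPS genes 0 were above and 6 below, with a median of −0.12, and of 46 MRPL genes, its large-subunit partners, 0 were above and 5 below. The 21 METTL genes, most of them methyltransferases, had a median of −0.13, with 2 above and 1 below by 0.32 or more.

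Chromosomes differed in B-CPAP as their gene content does in GC. The median difference was 0.38 on chromosome 4, 0.37 on chromosome 13 and −0.28 on chromosome 19, whose median exon GC was 42.4%, 42.5% and 59.6%. After like-GC subtraction the medians of these 3 chromosomes were 0.04, 0.03 and −0.01.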
